A study of Mus musculus with 4 samples.

Results

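Hox genes were examined in immortalized mouse brown preadipocytes, which can form brown fat cells, with and without the histone methyltransferase G9a. The genes were taken from the Hoxa, Hoxb, Hoxc and Hoxd clusters by symbol, as every probe set whose platform annotation held a single symbol of a Hox gene numbered 1 to 13. This gave 48 probe sets for 33 genes, of 45037 probe sets for 18193 named genes in all. Other Hox genes were not analysed here, and 3 probe sets that name a Hox gene among several symbols were left out.

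All cells carried floxed alleles of G9a (labelled G9af/f) on a mixed C57/BL6-129 background and were grown in DMEM with 10% FBS. The controls had received vector (labelled Vec, wild type), and the other group Cre recombinase (labelled Cre, G9a knock out). Each group held 2 Affymetrix arrays, numbered 1 and 2. The labels do not say how Cre was delivered, how many clones or animals the cells came from, or whether the arrays of a group were separate cultures. The unit of replication behind the p-values is therefore not known. The arrays of each group did differ in Xist and Y-linked signal (below), which is more than technical spread. Once the difference between the numbers is removed, the spread left may still be technical only.

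Hox genes encode homeodomain transcription factors that give cells of the embryo their position along the body axis. Genes at the 3′ end of a cluster, with low numbers, act toward the head, and genes at the 5′ end, with high numbers, act toward the tail. Mesenchymal cells, including fibroblasts and the precursors of fat depots, keep part of this pattern in culture. Polycomb proteins hold silent parts of the clusters closed, Trithorax proteins such as Kmt2a keep active parts open, and Hox proteins bind DNA with TALE homeodomain partners of the Pbx and Meis families.

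Ehmt2, the gene of G9a, read 2722 and 2646 signal units in the vector arrays and 949 and 941 in the Cre arrays (brightest probe set, quantile normalized signal). Which exons Cre removes is not in the labels, and a probe set that lies elsewhere in the gene is no check of the deletion. Of 9 preadipocyte and adipose mesenchyme markers on the array, 8 lay at or above the array median on all 4 arrays, while the thermogenic gene Ucp1 and the adipokine gene Adipoq lay below it on every array. Of the macrophage markers, 2 of 5 lay at or above it on all arrays (Cd68 and Csf1r), with the pan-leukocyte gene Ptprc between 2.14 and 14.9 units. Of the endothelium markers 0 of 4 did so, and of the skeletal muscle markers 1 of 5 (Pax3). Summed over the list, macrophage markers ranged from 271 to 411 units in vector cells and from 359 to 447 in Cre cells, and endothelium markers from 56.3 to 113 and from 134 to 226. Their part in the Hox results was not tested.

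The arrays differed by replicate number as well as by group. The X-linked transcript Xist read 11630 and 10030 units on the arrays numbered 1 (vector and Cre) and 51.5 and 68.1 on those numbered 2. The Y-linked gene Eif2s3y read 130 and 203 units on the arrays numbered 1 and 1122 and 1296 on those numbered 2 (brightest probe set). Zic1, a transcription factor gene used as a marker of classical brown fat, read 46.2 and 15.3 on the arrays numbered 1 and 939 and 821 on those numbered 2. The arrays of a number therefore shared a pattern that parted them from the other number, and Cre was set against vector within each number.

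Hox genes were detected up to position 9 in these cells. A gene was called above background when any of its probe sets lay at or above the median of all probe sets, 62.1 units after normalization, on all 4 arrays. By this rule 18 of the 33 Hox genes were above background, against 56.4% of all named genes. They comprised 4 of 7 anterior genes (positions 1 to 3), 11 of 12 central genes (4 to 8) and 3 of 14 posterior genes (9 to 13). Of the 4 genes at position 9, 3 were above background on all arrays and Hoxd9 on 3 arrays. Of the 10 genes at positions 10 to 13, 0 were above it on all arrays and 1, Hoxa11, on a single array. Their 12 probe sets read between 1.2 and 65.9 units.

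**Figure D1:**
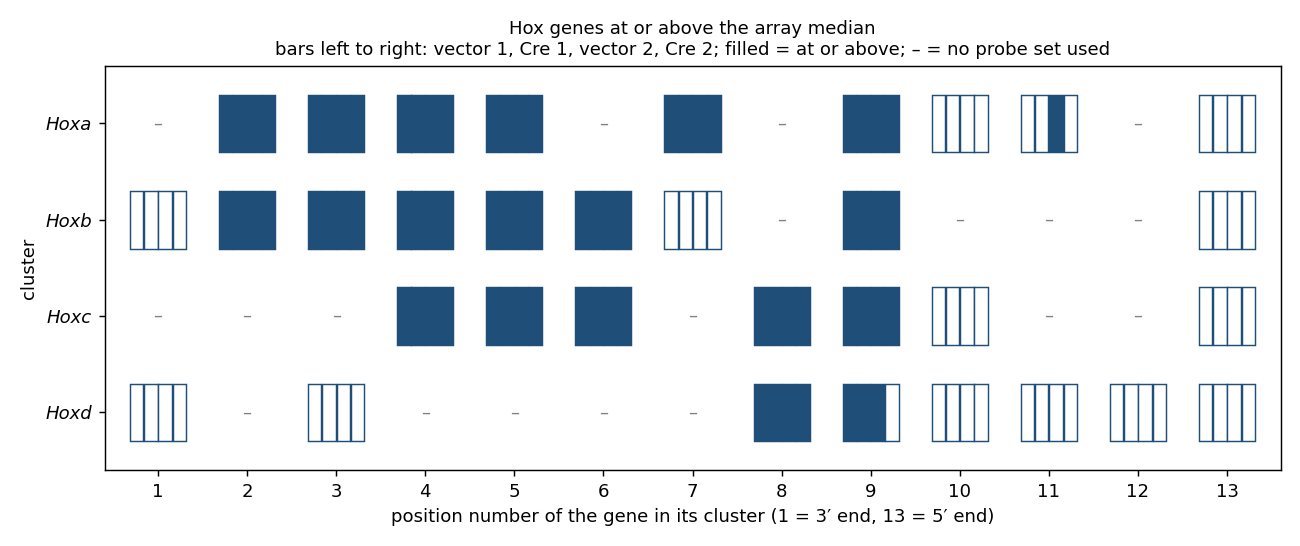
Hox genes by cluster (rows) and position number (columns). Each gene has 4 bars, for vector 1, Cre 1, vector 2 and Cre 2 from left to right, filled where the signal lay at or above the array median (probe set with the most arrays above it), and a dash marks a position with no gene or no probe set used. Filled bars span positions 2 to 9, with Hoxb7 and Hoxd3 empty, and positions 10 to 13 are empty except for 1 bar of Hoxa11.

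The clusters differed in which of their genes were detected. They also differed in which genes could be read: of 39 Hox genes in RefSeq, 6 had no probe set used here, among them Hoxa6, Hoxb8 and Hoxd4. In Hoxd, 5 of the 8 genes used were posterior. In Hoxa, 6 of 9 genes were above background on all arrays: Hoxa2, Hoxa3, Hoxa4, Hoxa5, Hoxa7 and Hoxa9. In Hoxb, 6 of 9 were, Hoxb2 through Hoxb6 and Hoxb9, while Hoxb1 and Hoxb13 at the ends and Hoxb7 inside were below it on every array. The single probe set of Hoxb7 read 16.2, 8.9, 22.9 and 3.55 units on vector 1, Cre 1, vector 2 and Cre 2, the order used throughout. In Hoxc, 5 of 7 were, Hoxc4, Hoxc5, Hoxc6, Hoxc8 and Hoxc9. In Hoxd only Hoxd8 of 8 genes was, and Hoxd1 and Hoxd3 at its 3′ end and Hoxd10 through Hoxd13 at its 5′ end were below it on every array. Probe sets differ in affinity, so the levels of different genes were not ranked.

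A second background gave nearly the same set. Olfactory and vomeronasal receptor genes, which belong to sensory neurons, had 80 probe sets, and with their 95th percentile as the limit, a setting added after the data were seen, 19 Hox genes were above background, Hoxd9 being the addition. That percentile lay between 43.9 and 58.5 units. A probe set below the limit shows that the transcript was not detected by it, not that the gene is silent.

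No Hox gene was called changed between Cre and vector cells. Of the 48 probe sets, 30 passed the filter, a mean of log2(signal + 16) over the 4 arrays at or above the 50th percentile of all probe sets. Of these 0 rose and 0 fell in limma with Benjamini-Hochberg adjustment at 0.05, where 0.00888% of all tested probe sets rose and 0% fell. At an unadjusted p under 0.05 there were 2 of the 30, or 6.67%, against 4.13% of all tested. With the replicate number as a block, which removes the difference between the numbers, limma again called 0 of 30 in either direction, while 2.29% of all tested probe sets rose and 0.853% fell. The smallest adjusted p of a Hox probe set was 0.999 without the block and 0.0782 with it. The brightest probe set of Ehmt2, at -1.49, was not called without the block (limma adjusted p = 0.227). With the block it was called (limma adjusted p = 0.000281). The model without the block thus missed a fall of that size, and its count of 0 says little. At an unadjusted p under 0.05 the blocked model held 9 of the 30, or 30%, against 15.9% of all tested. The 95% intervals of the blocked model reached 0.32 to 0.77 to either side of the difference on the log2 scale. They are not adjusted for the many probe sets tested. Changes within those bounds were not detectable with 2 arrays a group, and larger changes could be missed too. Hoxa4 differed by 0.84, with an interval from 0.35 to 1.33, and was not called.

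The median difference over the 30 Hox probe sets was -0.18, against -0.02 over all tested probe sets. Within number 1 both medians were -0.02, and within number 2 they were -0.28 for Hox and -0.02 for all. By the brightest probe set of each gene the Hox medians were 0.01 and -0.29. Both Cre arrays lay below both vector arrays in 8 of the 30, or 26.7%, where 15.8% of all tested probe sets did, and above them in 3, or 10%, where 14.2% did. By the brightest probe set of each gene, 9 of 19 genes were lower in Cre in both numbers, 4 were higher in both and 6 had opposite signs. Over probe sets, 43.3% of Hox members were lower in both numbers against 33.2% of all tested, 16.7% were higher in both against 27.9%, and 40% had opposite signs against 38.8%. Leaving out 1 array unbalances the numbers: the Hox median was -0.42 without Cre 1 and -0.030 without vector 1.

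**Figure D2:**
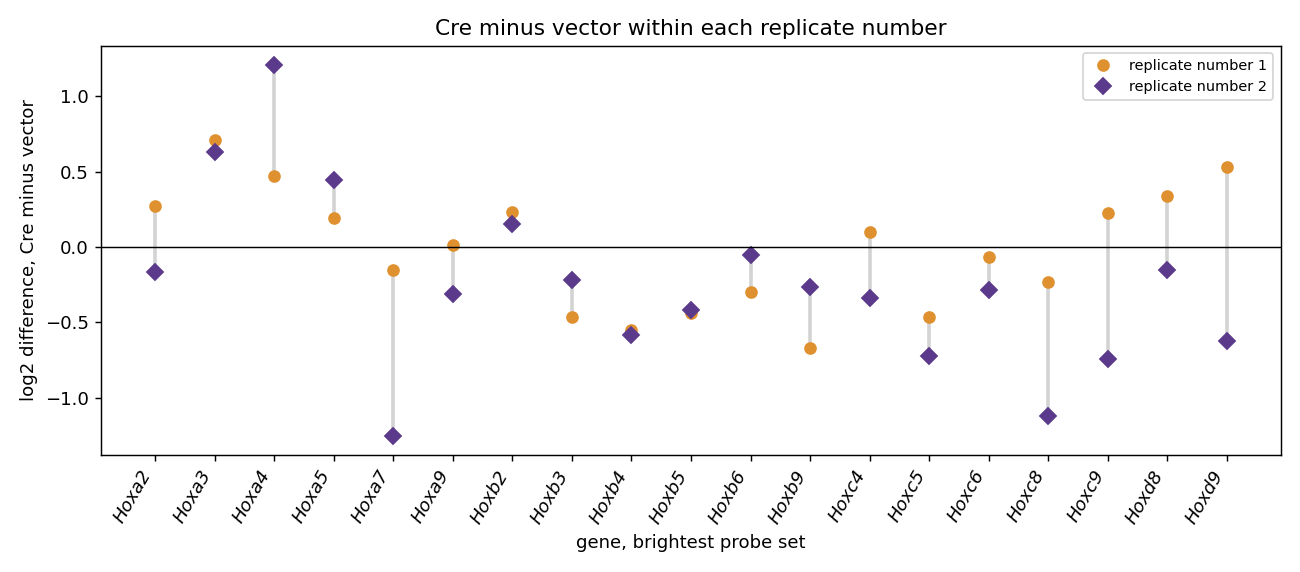
Cre minus vector (log2 difference, vertical axis) within replicate number 1 (circles) and number 2 (diamonds) for the 19 tested Hox genes by their brightest probe set. Hoxa3, Hoxa4, Hoxa5 and Hoxb2 lay above 0 in both numbers, Hoxb3 to Hoxb9 below 0 in both, and Hoxd9 at 0.53 and -0.62.

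Hoxa3, Hoxa4 and Hoxa5, neighbours in the Hoxa cluster, read higher in Cre cells in both numbers by their brightest probe sets, without passing the test; second probe sets of Hoxa3 and Hoxa5 had opposite signs in the numbers. Hoxa4, which patterns the neck vertebrae, read 329, 462, 145 and 356 units. Both Cre arrays lay above both vector arrays, and the differences within numbers 1 and 2 were 0.47 and 1.21 (limma adjusted p = 0.0782 with the block, n = 2 against 2). Hoxa3, needed for thymus and parathyroid development, read 368, 611, 224 and 355 units by its brightest probe set, and differed by 0.71 and 0.63. It was the 1 tested Hox gene at least 1.5-fold apart in the same direction in both numbers, where 2.77% of all tested probe sets were that much higher and 1.38% that much lower. Its second probe set (1452421_at) read 521, 511, 221 and 253 units and differed by -0.03 and 0.18. A dimmer tested one (1431392_at) differed by -0.49 and 0.20, so the probe sets of Hoxa3 do not give the same answer. The brightest one (1427433_s_at) belongs to a class that can match several transcripts, and Hoxa3 transcripts in RefSeq span Hoxa4 and Hoxa5.

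Hoxa5, which acts in the lung and the neck and thoracic skeleton, read 1349, 1546, 539.6 and 738.5 units. The groups overlapped, with differences of 0.19 and 0.44 within the numbers. Its second probe set (1443803_x_at), above background on all arrays, differed by -0.15 and 0.68. Hoxa2, a hindbrain and pharyngeal arch gene, read 182.5, 224, 173 and 152 units and moved by 0.27 and -0.17. Neither gene passed the test, and Hoxa2 had opposite signs in the numbers.

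The remaining Hoxa genes did not pass either. Hoxa7, a central gene of the trunk, read 122, 108, 248 and 94.9 units, lower in both Cre arrays than in both vector arrays. Nearly all of that lay in number 2, with differences of -0.16 and -1.25. Hoxa9, known for its role in blood stem cells and leukaemia, read 103.5, 105, 148.5 and 116 units and differed by 0.01 and -0.31.

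In the Hoxb cluster 5 of the 6 tested genes were lower in Cre in both numbers. Hoxb4, which supports blood stem cells, read 603, 406.5, 690.2 and 456 units, with both Cre arrays below both vector arrays. Its differences of -0.55 and -0.58 were alike in the numbers (-0.57 ± 0.18, SE of the blocked model, n = 2 against 2; limma adjusted p = 0.13). The second probe set of Hoxb4 had the same sign at -0.22 and -0.14.

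Hoxb5, which helps to set the place of the shoulder girdle, read 407, 297, 409 and 302.5 units. The groups did not overlap and the differences were -0.44 and -0.42 (limma adjusted p = 0.3 with the block). Hoxb3, a hindbrain and neck gene, read 1154, 832, 603 and 515 units, and Cre 1 lay above vector 2, so the groups overlapped. Its differences within the numbers were -0.46 and -0.22.

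Hoxb9, a posterior gene of the rib region, read 1591, 992.5, 870.2 and 721 units and differed by -0.67 and -0.27. Hoxb6 read 1444, 1174, 1159 and 1114 units and differed by -0.30 and -0.06. Hoxb2, which acts in the hindbrain, was the exception of the cluster: it read 1491, 1755, 1466 and 1633 units, higher in both Cre arrays, by 0.23 and 0.15. Of these Hoxb genes 0 passed the adjusted threshold in either model.

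In the Hoxc cluster all 5 tested genes were lower in Cre in number 2. Hoxc8, which has been tied to white fat and to restraint of the brown fat programme, read 2081, 1773, 2625 and 1199 units. Both Cre arrays lay below both vector arrays, with differences of -0.23 and -1.12 (-0.67 ± 0.19, SE of the blocked model, n = 2 against 2; limma adjusted p = 0.101). Most of the difference came from number 2. Hoxc5 read 1285, 929, 1322 and 794.5 units, again without overlap, and differed by -0.46 and -0.72 (-0.59 ± 0.16; limma adjusted p = 0.0856 with the block). Its other probe sets had smaller or less even differences, 0.02 and -0.62 for 1450832_at and -0.02 and -1.50 for 1456301_at.

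Hoxc6, also expressed in the mammary gland, read 1080, 1032, 1070 and 874 units by its brightest probe set, lower in both Cre arrays by 0.06 and 0.29. A dimmer probe set of the same gene (1427454_at) went the other way, with 113.5, 114, 49 and 120 units. Hoxc4 read 1770, 1893, 1493 and 1178 units and Hoxc9, another gene of white fat precursors, 310, 365, 400 and 233 units. Both had opposite signs in the numbers, at 0.10 and -0.34 for Hoxc4 and 0.23 and -0.74 for Hoxc9.

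In the Hoxd cluster both tested genes were higher in Cre in number 1 and lower in number 2. Hoxd8 read 848, 1074, 586 and 527 units, with differences of 0.34 and -0.15. Hoxd9, which acts in the forelimb and lumbar region, read 180, 267, 93.1 and 54.9 units and differed by 0.53 and -0.62. The groups overlapped for both genes.

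**Figure D3:**
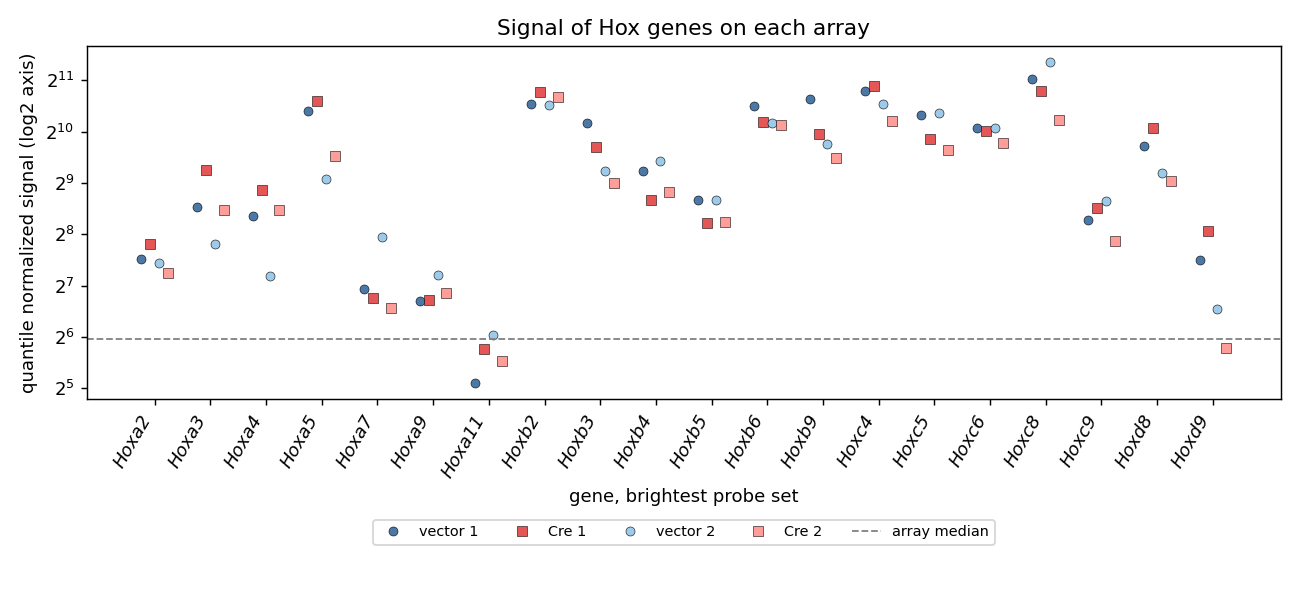
Quantile normalized signal (log2 axis) on each array for the 19 tested Hox genes and Hoxa11, brightest probe set. Vector arrays are circles, Cre arrays squares, number 2 in the lighter shade, and the dashed line is the array median of 62.1 units. Hoxa5 read 1349 and 1546 on the number 1 arrays and 539.6 and 738.5 on the number 2 arrays.

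More Hox probe sets were called between the replicate numbers than between the groups. In an additive model of group and number, 11 of the 30 Hox probe sets (36.7%) were lower in number 2 at a limma adjusted p under 0.05, where 7.6% of all tested probe sets were, and 1 (3.33%) was higher, where 7.39% were. The 12 belong to 8 genes: Hoxa3, Hoxa4, Hoxa5, Hoxb3, Hoxb9, Hoxd8 and Hoxd9 were lower in number 2, and 1 probe set of Hoxa9 was higher. Both arrays numbered 2 lay below both numbered 1 in 13 of the 30, or 43.3%, where 24.6% of all tested probe sets did, and above them in 2, or 6.67%, where 28.4% did. The number is a label with no treatment behind it, and Xist and Zic1 parted the same arrays. Of the 9 preadipocyte and adipose mesenchyme markers, by brightest probe set, 3 were called higher in number 2 (Thy1, Pparg and Ebf2) and 2 lower (Cebpb and Pdgfrb). Of all tested probe sets 7.39% were called higher and 7.6% lower. Thy1, a surface marker of mesenchymal cells, read 413, 506, 2902 and 2459 units. The part of these genes in the Hox difference was not tested. Fewer cells of a type and less RNA per cell cannot be told apart in such bulk RNA.

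These calls depend on how the spread was estimated. The model has 1 residual degree of freedom, and on simulated data it made more false calls than its threshold states. Without the intensity trend 1 Hox probe set was called, and 0.666% of all tested. It was 1455626_at of Hoxa9, which passed the level filter only through number 2 (below). Without the level filter 3 were called (Hoxa3, Hoxa5 and Hoxa9), and 1.73% of all. Median centring moved the median over all tested probe sets to 0.27 and the deposited scaling to -0.12, against 0.01 here. The Hox median of -0.16 became 0.06 and -0.33, below the median of all in each case. With median centring 6 Hox probe sets were called, or 20%, where 32.3% of all tested were, so the Hox share lay below that of all probe sets. Of the 6, 5 were lower in number 2 (16.7% of Hox against 4.03% of all), since that scaling called 28.3% of all probe sets higher. With the deposited scaling 13 were called, or 43.3%, against 22.4% of all. The 7 lower genes, by their brightest probe sets, kept their sign under both scalings. With median centring the brightest probe sets of Hoxa3, Hoxa4, Hoxb3, Hoxb9 and Hoxd8 were no longer called. Another probe set each of Hoxa3 and Hoxb3 was still called. By brightest probe set Hoxb3 (-0.49), Hoxb9 (-0.30) and Hoxd8 (-0.45) shrank by over 1.5-fold with that scaling.

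**Figure D4:**
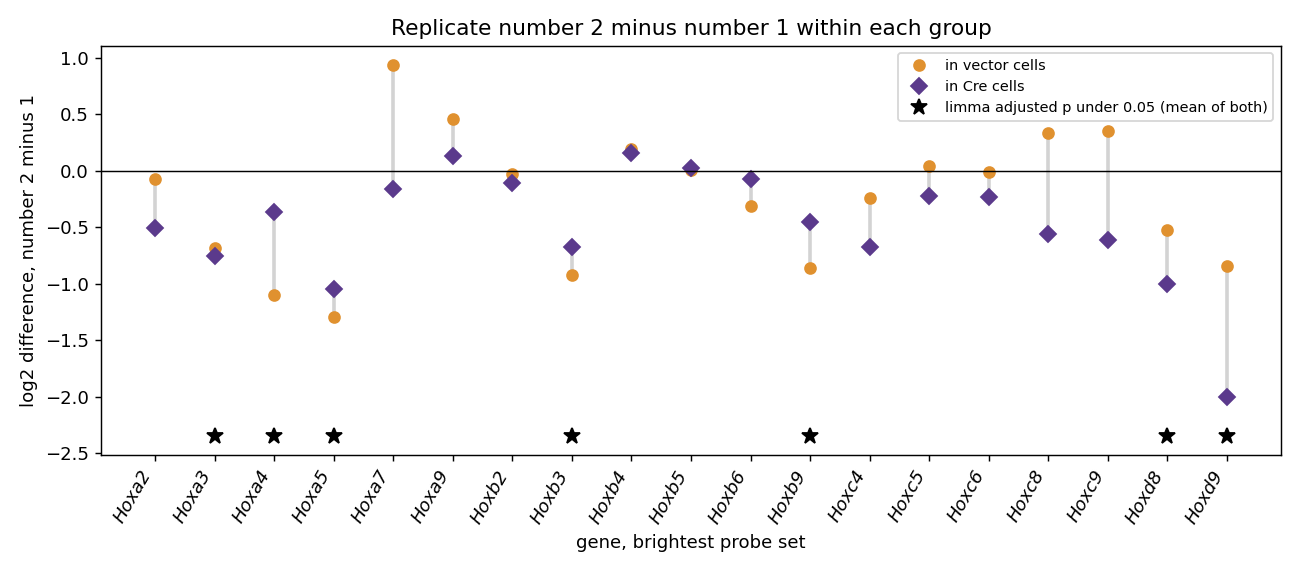
Number 2 minus number 1 (log2 difference, vertical axis) in vector cells (circles) and Cre cells (diamonds) for the 19 tested Hox genes, brightest probe set. Stars mark the 7 genes with a limma adjusted p under 0.05 for the difference over both groups, all lower in number 2, among them Hoxa5 at -1.30 and -1.05.

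In the Hoxa cluster Hoxa3, Hoxa4 and Hoxa5 were lower in number 2 by their brightest probe sets. Hoxa5 was 2.25-fold lower in number 2 on the log2(signal + 16) scale, by -1.30 in vector and -1.05 in Cre cells (-1.17 ± 0.16, SE; limma adjusted p = 0.00186), and its second probe set by -1.68 and -0.85. Hoxa3 differed by -0.68 and -0.76 on its brightest probe set and Hoxa4 by -1.10 and -0.36 (limma adjusted p = 0.028 and 0.0499). A dimmer probe set of Hoxa3 (1431392_at) had opposite signs, at -0.29 in vector and 0.40 in Cre cells, and was not called. Hoxa4 was not called with a pseudocount of 64 or in robust eBayes. A probe set of Hoxa9 (1455626_at, singled out after its values were seen) read 43.4, 41.1, 321 and 218.5 units, below the array median on both arrays of number 1 and above it on both of number 2, through which it passed the level filter. A probe set that passed in this way had to differ, so its call supports nothing. The brightest probe set of Hoxa9 differed by 0.46 in vector and 0.13 in Cre cells and was not called.

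Hoxd9 was 2.67-fold lower in number 2, by -0.84 in vector and -1.997 in Cre cells (-1.42 ± 0.29, SE; limma adjusted p = 0.011). Hoxd8 differed by -0.52 and -1.005 and its second probe set by -0.28 and -1.44. Hoxb3 differed by -0.92 and -0.68 and Hoxb9 by -0.86 and -0.45. By their brightest probe sets, Hoxb2, Hoxb4, Hoxb5, Hoxb6, Hoxc5 and Hoxc6 differed by at most 0.31 in size in either group and were not called. Dimmer probe sets of Hoxc5 and Hoxc6 differed by more without being called, 1456301_at of Hoxc5 by 0.94 in vector and -0.55 in Cre cells and 1427454_at of Hoxc6 by -0.99 and 0.07. Hoxb5 read alike in the numbers, with 0.01 in vector and 0.03 in Cre cells (95% interval of the mean -0.40 to 0.43).

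The stretches upstream of Hoxa5, Hoxa9 and Hoxd9 are shown because 1 probe set of each gave the largest differences in size between the numbers. Each is the 250 bases before the start of the gene in RefSeq annotation of GRCm38.p6, written along the strand of the gene, with CpG dinucleotides in capitals. Hoxa5 lies at chr6:52204588-52204837 (minus strand), Hoxa9 at chr6:52227371-52227620 (minus strand) and Hoxd9 at chr2:74697513-74697762 (plus strand).
Hoxa5: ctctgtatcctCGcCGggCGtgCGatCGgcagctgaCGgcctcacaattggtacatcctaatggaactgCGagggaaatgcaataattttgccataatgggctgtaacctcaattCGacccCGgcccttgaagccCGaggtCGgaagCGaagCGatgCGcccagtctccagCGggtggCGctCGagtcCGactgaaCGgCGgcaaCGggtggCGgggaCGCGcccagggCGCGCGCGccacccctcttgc
Hoxa9: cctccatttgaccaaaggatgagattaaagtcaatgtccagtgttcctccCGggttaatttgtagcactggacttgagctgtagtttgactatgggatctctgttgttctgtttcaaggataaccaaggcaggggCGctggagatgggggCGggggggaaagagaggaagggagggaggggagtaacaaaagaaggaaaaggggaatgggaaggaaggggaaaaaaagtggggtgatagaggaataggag
Hoxd9: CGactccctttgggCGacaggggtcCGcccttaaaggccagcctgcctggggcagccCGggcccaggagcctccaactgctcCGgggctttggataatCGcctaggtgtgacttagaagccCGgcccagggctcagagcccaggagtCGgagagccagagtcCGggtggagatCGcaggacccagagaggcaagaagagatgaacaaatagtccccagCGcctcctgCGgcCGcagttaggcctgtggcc
The Hoxa5 stretch holds 28 CpG dinucleotides, that of Hoxd9 13 and that of Hoxa9 3. The median over all 32851 promoters of the same length in the table was 6. Promoter entries existed for 19 of the 33 Hox genes, 21 stretches in all, with 2 to 35 CpG dinucleotides and a median of 13. The 8 stretches of genes above background on all arrays held 3 to 28 with a median of 7.5, and the 11 of genes above it on no array 2 to 35 with a median of 20. The ranges overlapped, and the difference was not tested. The paired Hox and Pbx motif TGATTNAT, searched on both strands, occurred in 2 of the 21, those of Hoxa2 and Hoxd11, and in 2.82% of all promoters. A match of letters is a description and shows no binding.

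Of 3 tested other transcripts of the clusters, 2 antisense transcripts were called lower in number 2, where 7.6% of all tested probe sets were. Hoxb5os, an antisense transcript of the Hoxb cluster, read 2967, 3609, 734 and 697 units, and both number 2 arrays lay far below both of number 1 (-2.17 in the additive model; limma adjusted p = 4.2e-05). Hoxb5 itself showed no such difference. Hoxd3os1 read 313, 431, 165 and 167.5 units and was also lower in number 2 (-1.07; limma adjusted p = 0.00868), while Hoxd3 lay below the array median on every array. Of the 5 other cluster transcripts with a probe set, Evx1 and Hoxa11os were below the median throughout and Evx2 differed by 0.11 between Cre and vector. The antisense transcript Hoxa11os, not tested, went the other way between the numbers by its brightest probe set, with 18.3, 18.7, 36.4 and 20.8 units. Of the 3 tested, 0 were called between Cre and vector in either limma model.

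The partners and regulators of Hox genes did not pass between Cre and vector either. Of 9 tested TALE cofactors 0 were called in either limma model, with a median difference of -0.09. By brightest probe set in the model without the block, the smallest p-values belonged to Tgif2 (-0.24), Meis1 (-0.24) and Pknox1 (0.23). The order was another in the blocked model, led by Meis2 (0.26). Of 22 tested regulators, which include Polycomb, Trithorax and retinoic acid pathway genes, 0 were called, with a median of -0.14. On the same terms their smallest p-values belonged to Rarb, a retinoic acid receptor gene (0.60), Mtf2, a Polycomb accessory subunit gene (-0.47), and Phf19, another one (-0.39), while in the blocked model they belonged to Mtf2, Rara and Rarb. Dimmer probe sets of Pbx2 (-0.60), Suz12 (-0.64) and Men1 (-0.56) had smaller p-values in both models and were not called either.

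By brightest probe set, 2 of the 9 tested TALE cofactors were called lower in number 2, where 7.6% of all tested probe sets were. They were Tgif1 (-0.56; limma adjusted p = 0.0212) and Meis2 (-0.62; limma adjusted p = 0.0495). A second probe set of Meis2 (1417129_a_at) was above background on all arrays and went the other way (337.5, 362, 527 and 499.5 units; 0.53; limma adjusted p = 0.0765). Of the 22 tested regulators, by brightest probe set, 1 was called higher and 1 lower, both below the shares of 7.39% and 7.6% over all tested probe sets. Rara was higher (0.79; limma adjusted p = 0.0457). Kdm6a, an X-linked gene of a histone H3K27 demethylase, was lower (-1.39; limma adjusted p = 0.00202), reading 394, 470, 145.5 and 164 units. A dimmer probe set of Kdm6b (1456610_at), above background on all arrays, was also called lower, at -0.76 (limma adjusted p = 0.0197). The brightest one of Kdm6b, at -0.47, was not called. These genes were named after their values were seen.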

How the data were processed

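The authors deposited 1 signal intensity per probe set and array on a linear scale, made with MAS5 per the submitters' processing notes. Its version is not given in the sources used here, and the file holds no detection calls. The 64 control probe sets were left out. Arrays were quantile normalized, because their medians differed by 0.50 (log2), and taken as log2(signal + 16), a scale on which changes of dim genes look smaller than they are. The 22519 probe sets with a mean log2 value at or above the 50th percentile were tested with lmFit and eBayes (intensity trend) in limma 3.58.1 (R 4.3.3), with Benjamini-Hochberg adjustment over all of them. The models were run on simulated data. The model with the block and the model of number 2 against 1, each with 1 residual degree of freedom, made more false calls there than their threshold states.

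The within-number differences and the blocked model treated the arrays as paired by number. This was done because same-numbered arrays shared Xist and Y-linked signals and their deviations from the group means correlated at 0.603 over probe sets. The limma model of Cre against vector without the block did not use the pairing. The planned background limit needed 100 receptor probe sets and found 80, so the planned fallback, the array median, was used. Named were all Hox genes above background on at least 1 array, by the brightest probe set, a second probe set whose difference between Cre and vector was of other sign or over 0.5 apart, and from each other list the called genes or the 3 with the smallest p. The members and lists were chosen with earlier results of these data known. Alternatives were pseudocounts of 1 and 64, other filters and scalings, other eBayes settings, the block, other background limits and leaving out each array. An exact permutation test of 2 against 2 cannot go below 0.333.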

Additional observations from a re-analysis of the deposited data

Results flagged for a closer look

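Hoxd9 moved in opposite directions in the replicate numbers, 0.53 higher in Cre than in vector cells in number 1 and -0.62 in number 2 on the log2 scale, which puts number 2 below number 1 by -1.15. With 1 array for each group and number the difference between the numbers was not tested. It was the 1 gene of the 19 tested by the brightest probe set with at least 0.5 in each direction, a limit chosen after the data were seen.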

How the results depend on the processing

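The count of 18 Hox genes above background lay within 1.5 times of itself under every other limit tried, and leaving out 1 array left 18 to 19. The count of 0 Hox probe sets called between Cre and vector held under every alternative, the replicate block included. The block changed no Hox call. The counts of 9 genes lower in Cre in both numbers, 4 higher in both and 6 of opposite sign stayed within 1.5 times of themselves under the other pseudocounts and scalings and with the mean over probe sets. The Hox median of -0.18 ran from -0.42 without Cre replicate 1 to -0.030 without vector replicate 1.

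The 12 Hox probe sets called between the numbers of 30 (40%, against 15% of all tested probe sets) became 3 of 48 without the level filter (6.25% against 1.73%), 5 of 13 with the filter at the 75th percentile (38.5% against 21.4%), 6 with median centring (20% against 32.3%) and 1 without the intensity trend (3.33% against 0.666%). The counts of 12, 3, 6 and 1 each include the Hoxa9 probe set 1455626_at, which passed the main level filter only through number 2. Without the intensity trend it was the only call, so no excess can be read from that setting. The excess of Hox calls over all probe sets, both directions together, was lost with median centring. Calls lower in number 2 were 16.7% of Hox against 4.03% of all with that scaling, and 0% against 0.413% without the intensity trend. The Hox median between the numbers was 0.056 with median centring. Leaving out an array leaves that model no residual degrees of freedom, so it was not run. Among single genes that passed in neither case, the sign of Cre minus vector turned for Hoxd9 with a pseudocount of 64 (0.020), for Hoxa2 (-0.011) and Hoxd8 (-0.04) with median centring. With 1 array left out in turn the difference ran from -0.21 to 0.31 for Hoxa2, from -0.32 to 0.98 for Hoxa5, from -0.38 to 0.079 for Hoxa9, from -0.79 to 0.12 for Hoxb3, from -0.47 to 0.21 for Hoxc4, from -0.58 to 0.050 for Hoxc9, from -0.42 to 0.59 for Hoxd8 and from -1.08 to 0.94 for Hoxd9. The sign of number 2 minus number 1 turned with the deposited scaling for Hoxa9 (-0.027) and Hoxb5 (-0.19), and with median centring for Hoxb2 (0.34), Hoxb6 (0.17), Hoxc5 (0.27), Hoxc6 (0.22), Hoxc8 (0.28) and Hoxc9 (0.060). The cause was not tested. The 2 arrays a group limit every value, and probe sets near the array median give little signal over background.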

Other observations

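Below the test's level filter, some posterior genes read higher on both arrays numbered 2, all of them under the array median of 62.1 units. By brightest probe set these were Hoxa10, Hoxb13, Hoxc10, Hoxc13 and Hoxd13. Hoxa11, Hoxa13, Hoxd10 and Hoxd12 overlapped between the numbers, and Hoxd11 was lower in number 2. The pattern was not limited to posterior genes: the anterior gene Hoxd1 was also higher on both arrays numbered 2 (13.25, 2.425, 17.8 and 15.68 units). Among the other genes below the filter, Hoxd3 was lower in number 2, and Hoxb1 and Hoxb7 overlapped. The second probe sets of Hoxa10 and Hoxd13 overlapped too. How often other probe sets this dim were higher in number 2 was not counted. Hoxa10, a gene of the uterus and posterior axis, read 12.6, 14.3, 39.3 and 42.9 units on vector 1, Cre 1, vector 2 and Cre 2, and Hoxc10, expressed in subcutaneous fat, 15.3, 5.8, 45.6 and 37.8. Hoxc13, known from hair and nail, read 2.95, 4.35, 11.3 and 14.1 units. Cyp26b1, the gene of an enzyme that breaks down retinoic acid, read 90, 127, 17.8 and 24.8 units, lower on both arrays numbered 2. Hoxa10, Hoxc10, Hoxc13 and Cyp26b1 were singled out after their values were seen and were not tested.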
